A study of Mus musculus with 6 samples.

Results

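The genes described here are 10 genes that fold, hydroxylate and export procollagen: the hydroxylase genes P4ha1, P4ha2, P4hb, Plod1, Plod2 and Plod3, the chaperone genes Serpinh1 and Fkbp10, and the secretion genes Sec23a and Creb3l2. They were taken by symbol from a table of 43496 gene entries, and each symbol had an entry. They were read in RNA-seq libraries of the E15.5 mouse cranial base, a largely cartilaginous tissue under the brain, from 3 Memo1 mutant and 3 control embryos of strain C57BL/6J, with 1 embryo per library. The mutant embryos had a Memo1 allele induced with ENU, a chemical mutagen. The sources used here state neither how many copies of the allele the mutants had nor the Memo1 genotype of the controls. The dissected tissue was used whole, and markers of cartilage, bone, connective tissue, epithelium, muscle, fat, vessels and blood were all detected in it.

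Collagen chains enter the endoplasmic reticulum one by one and are hydroxylated there before they wind into a triple helix. Prolyl 4-hydroxylase joins an alpha subunit (P4ha1 or P4ha2), which carries the active site, to protein disulfide isomerase (P4hb), and its hydroxyproline makes the helix stable at body temperature. The lysyl hydroxylases Plod1, Plod2 and Plod3 make the hydroxylysine used for sugar attachment and cross-links. Serpinh1 (HSP47) binds the finished helix and Fkbp10 (FKBP65) is a prolyl isomerase that assists folding and telopeptide lysine hydroxylation. Procollagen then leaves in carriers coated by COPII, of which Sec23a is an inner coat subunit, and the membrane-bound transcription factor Creb3l2 (BBF2H7) is known in mouse chondrocytes to drive Sec23a. Mouse cartilage lacking Creb3l2 retains collagen in the endoplasmic reticulum.

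Values were FPKM, fragments per kilobase of transcript scaled to library size, so levels of different genes can be set beside each other. Mutant 1 stood apart from the other libraries. Of the 15710 tested entries 3447 had a value of 0 there, where each other library had 38 to 68 such entries. Across genes, its log2 values gave r of 0.748 to 0.762 with those libraries, which gave 0.968 to 0.981 with each other. The tests of the 10 genes are therefore given with and without it. Relative to control 1, the depth read from the steps between low values was 117% in mutant 2, 152% in mutant 3, 80.2% in control 2 and 93.4% in control 3, and could not be read in mutant 1. None of the 10 genes had a value of 0 in any library, and their lowest value was 21.6 FPKM. Memo1 itself was 25.4, 20.1 and 22.2 FPKM in the mutants and 19.1, 23.1 and 21.9 FPKM in the controls, and the groups overlapped. No source used here says that the allele alters the mRNA level, so this does not check the labels. Xist, expressed from the inactive X chromosome of females, reached 114 FPKM in mutant 3 and stayed at or below 0.0942 FPKM in mutant 2 and the controls. It was listed at 0 in mutant 1, where many other genes were too.

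Of the 10 genes, P4ha1 had the best supported difference. It was about 1.28-fold higher in mutant cranial base, above every control in all 3 mutants, and passed the test only when libraries were weighted by their spread. Plod2, Plod1, P4hb, Creb3l2 and Serpinh1 were also above all 3 controls in all 3 mutants, by 1.12-fold to 1.5-fold, but none of these passed the test in any fit. Without mutant 1 their folds ran from 1.12 for Serpinh1 to 1.36 for Plod2, and that of P4hb was 1.13, against 1.35 with all 6 libraries. Plod3 was above the controls in mutants 2 and 3 and below them in mutant 1. P4ha2, Fkbp10 and Sec23a overlapped between genotypes with or without mutant 1. No gene of the 10 lay below the controls in all mutants.

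**Figure D1:**
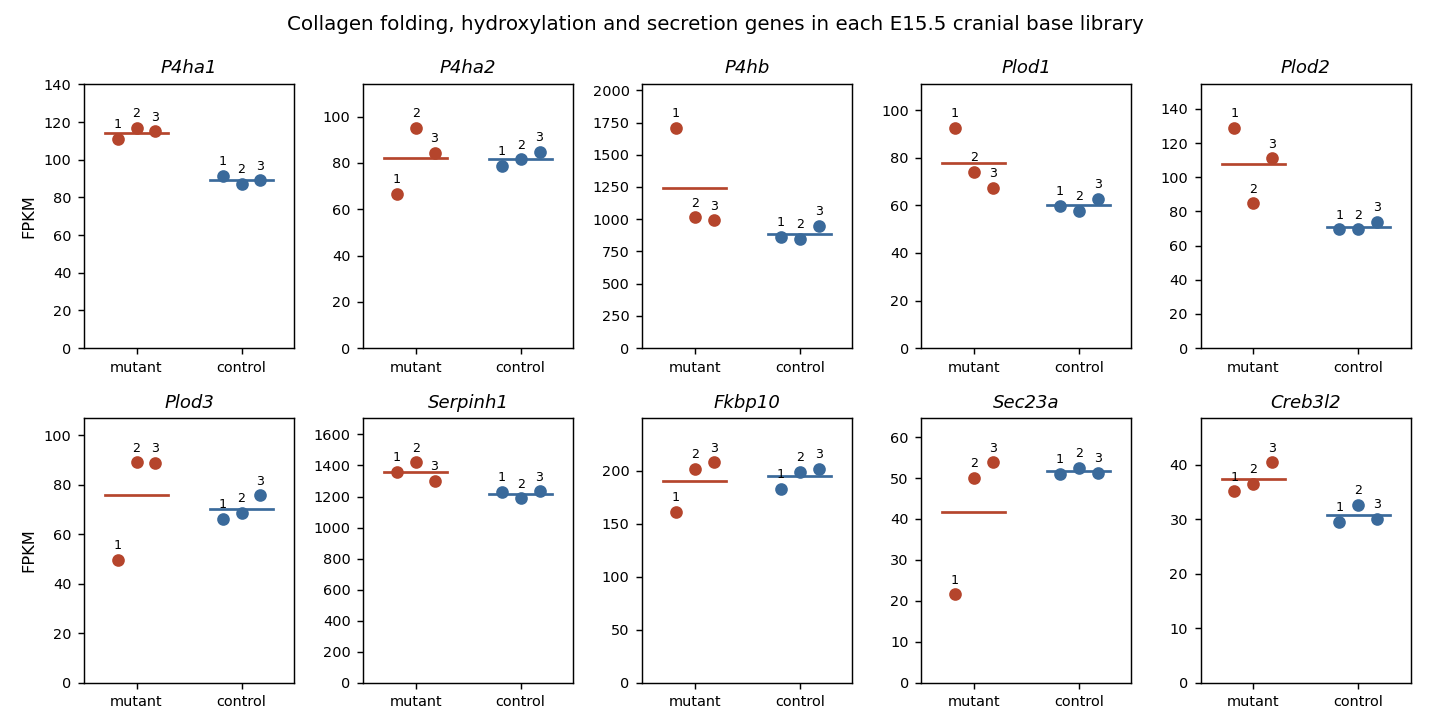
FPKM of each of the 10 genes (vertical axes from 0) in the 3 mutant and 3 control libraries; points carry the replicate number and bars are group means. In 6 of 10 panels every mutant lies above every control, and mutant 1 lies far from mutants 2 and 3 for P4hb, Plod3 and Sec23a.

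In the fit of all 6 libraries limma on log2(FPKM + 1), with Benjamini-Hochberg adjustment over 15710 entries, called 0% of entries and 0 of the 10 genes at an adjusted p of 0.05. At an unadjusted p under 0.05 it had 805 entries (5.12%), with 2.11% higher in mutants, and 4 of the 10 genes, all higher. With array weights, where a library far from its group counts for less, the weight was 0.0329 for mutant 1 and 1.47 to 2.76 elsewhere. This fit called 2.04% of entries, 0.719% as higher in mutants, and 1 of the 10 genes, P4ha1, as higher. At an unadjusted p under 0.05 it had 6 of the 10 genes as higher, against 7.85% of entries. Without mutant 1 the fit called 0.0446% of entries, 0.0127% as higher, and 0 of the 10, with 7.56% of entries and 5 of the 10 genes higher at an unadjusted p under 0.05. Quantile normalization called 0.00637% of entries, and 0.172% without mutant 1, with 0 of the 10 genes in both. Every mutant lay above every control in 6 of the 10 genes, against 8.98% of all entries, and against 9.98% of the entries with a mean of at least 30 FPKM. Without mutant 1 these were 7 of 10 genes, against 16.2% and 13.9%. Every mutant lay below every control in 0 of the 10 and in 11.9% of entries, and without mutant 1 in 0 of the 10 and in 20.1%. The log2 change was above 0 in 7 of the 10 genes with all 6 libraries, against 45.8% of entries. It was above 0 in 10 of 10 both with array weights, against 46.5%, and without mutant 1, against 47.0%. The median of the 10 log2 changes was 0.215 in the fit of all 6 libraries, where that of all entries was -0.046. It was 0.2 against -0.017 under array weights, and 0.203 against -0.015 once mutant 1 was left out. The 10 genes were chosen with results of these data known, so these counts describe them and test nothing.

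**Figure D2:**
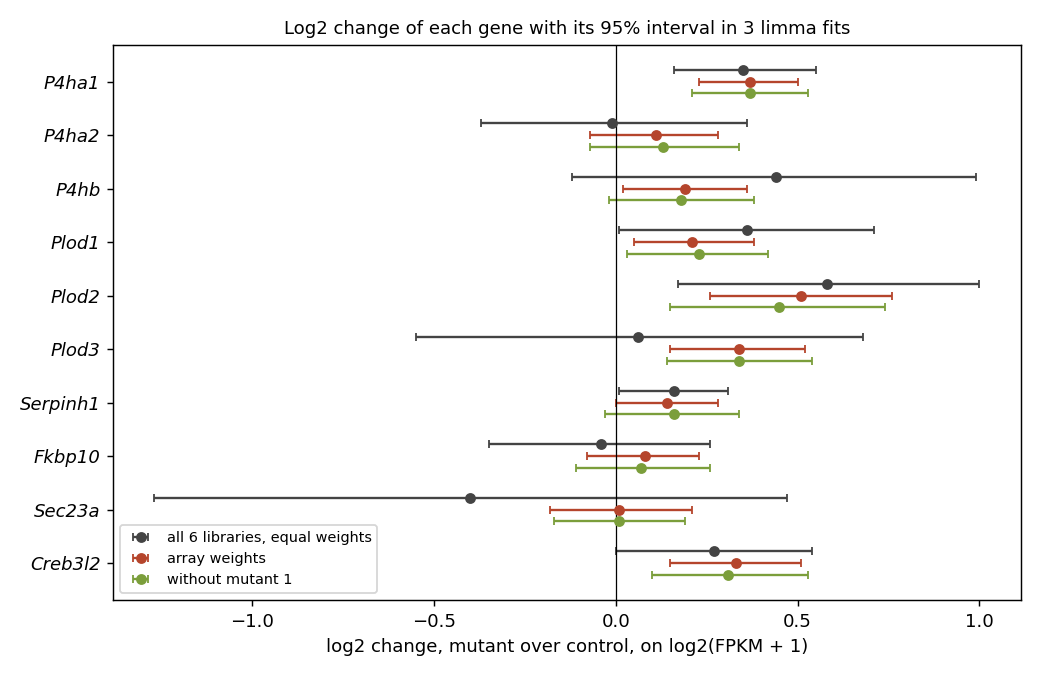
Log2 change of each gene, mutant over control, on the log2(FPKM + 1) scale (horizontal axis), with its 95% interval, from 3 limma fits. The intervals of Plod3, Sec23a and P4hb narrow most when mutant 1 counts for less, and the estimate for Sec23a moves to 0.01.

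The 10 genes covered a wide range of levels. In controls Serpinh1 averaged 1217 ± 25.2 FPKM and ranked 28 among the 15710 tested entries, and P4hb averaged 887 ± 55.6 FPKM and ranked 52 (SD, n = 3). Fkbp10 came next at 195 ± 10.3 FPKM. The alpha subunits and lysyl hydroxylases followed within a narrow band: P4ha1 at 89.3 ± 2.17, P4ha2 at 81.6 ± 3.02, Plod2 at 71 ± 2.58, Plod3 at 70.2 ± 4.96 and Plod1 at 60.1 ± 2.47 FPKM (SD, n = 3). Sec23a was 51.6 ± 0.727 FPKM and Creb3l2, the transcription factor, was lowest at 30.7 ± 1.65 FPKM (SD, n = 3). Among neighbours in this order only Plod2 and Plod3 had control ranges that overlapped. The coefficient of variation among the 3 controls was 1.41% for Sec23a, the lowest of the 10, and 7.06% for Plod3, the highest.

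P4ha1, the widely expressed alpha subunit of prolyl 4-hydroxylase, was 111, 117 and 115 FPKM in mutants 1, 2 and 3, against 91.5, 87.2 and 89 FPKM in controls 1, 2 and 3. The groups did not overlap, and the gap between them exceeded the spread within either. The log2 change was 0.35 (SE 0.079, 95% interval 0.16 to 0.55, limma adjusted p = 0.695), and with array weights 0.37 (SE 0.058, interval 0.23 to 0.50, limma adjusted p = 0.0343). Without mutant 1 it was 0.37 (SE 0.067, limma adjusted p = 0.0906). The size of the change thus did not hang on mutant 1, and the call did hang on the weighting.

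P4ha2, the alpha subunit that is prominent in cartilage, was 66.5, 95.2 and 84.3 FPKM in the mutants and 78.6, 81.5 and 84.7 FPKM in the controls. Mutant 1 was the lowest of all 6 libraries and mutant 2 the highest. Its log2 change was -0.01 (95% interval -0.37 to 0.36, limma adjusted p = 0.982) and 0.13 without mutant 1 (interval -0.07 to 0.34), and the first interval includes a change as large as that of P4ha1. The ratio of P4ha1 to P4ha2 within a library does not depend on how the library was scaled. It was 1.67, 1.23 and 1.36 in the mutants and 1.16, 1.07 and 1.05 in the controls, with every mutant above every control (log2 difference 0.36, two-sided exact permutation p = 0.1, the smallest that 3 against 3 allows, and 0.4 adjusted over the 4 ratios computed). Without mutant 1 the difference was 0.24.

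P4hb, the disulfide isomerase that is the beta subunit and also works on its own, was 1709.8, 1014 and 991 FPKM in the mutants and 859.5, 850.3 and 951 FPKM in the controls. Mutant 1 was far above the rest, and mutant 3 was close to control 3. The log2 change was 0.44 (SE 0.22, 95% interval -0.12 to 0.99, limma adjusted p = 0.695) and 0.18 without mutant 1 (SE 0.081, limma adjusted p = 0.335). P4hb stood at 8.32, 4.31 and 4.36 times the summed level of P4ha1, P4ha2 and P4ha3 in the mutants, and at 4.31, 4.36 and 4.76 times in the controls. Outside mutant 1 the ranges of this ratio overlapped between genotypes.

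Among the lysyl hydroxylases Plod2, which acts on the telopeptides that form pyridinoline cross-links, had the largest fold of the 10 genes. It was 129, 84.7 and 111 FPKM in the mutants and 69.5, 69.5 and 74 FPKM in the controls. Each mutant was above each control, but the mutants spread over a wider range than the controls. Its log2 change was 0.58 (SE 0.17, 95% interval 0.17 to 1.0, limma adjusted p = 0.695), 0.51 with array weights (SE 0.11, limma adjusted p = 0.0611) and 0.45 without mutant 1 (SE 0.12, limma adjusted p = 0.162). It did not pass in any fit.

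Plod1, which hydroxylates lysines of the helix, was 92.6, 74 and 67.2 FPKM in the mutants and 59.8, 57.8 and 62.7 FPKM in the controls. All mutants were higher, mutant 3 by the least. In log2 terms the change was 0.36 (SE 0.14, 95% interval 0.01 to 0.71, limma adjusted p = 0.695) and 0.23 without mutant 1 (SE 0.08, limma adjusted p = 0.237). Plod3, which also transfers sugars to hydroxylysine, was 49.5, 89 and 88.9 FPKM in the mutants and 66.1, 68.7 and 75.7 FPKM in the controls. Mutants 2 and 3 were above every control and mutant 1 below every control. Its log2 change was 0.06 (95% interval -0.55 to 0.68, limma adjusted p = 0.902) with all 6 libraries and 0.34 without mutant 1 (SE 0.083, interval 0.14 to 0.54, limma adjusted p = 0.136).

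Summed over the 3 genes, lysyl hydroxylase transcripts were 271, 248 and 267 FPKM in the mutants and 195, 196 and 212 FPKM in the controls. The make-up of that sum was steady in the controls, where Plod2 gave 34.8% to 35.6% of it. In mutants 1, 2 and 3 Plod2 gave 47.7%, 34.2% and 41.6%, so mutant 2 lay just below the controls and the other mutants above. The Plod2 to Plod1 ratio was 1.4, 1.14 and 1.66 in the mutants and 1.16, 1.2 and 1.18 in the controls (log2 difference 0.23, two-sided exact permutation p = 0.4, adjusted 0.533, and 0.22 without mutant 1), and the groups overlapped.

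Serpinh1, the collagen-specific chaperone, was 1357, 1419.5 and 1298 FPKM in the mutants and 1229, 1188 and 1233 FPKM in the controls. The groups did not overlap, but the difference was small. This gave a log2 change of 0.16 (SE 0.061, 95% interval 0.01 to 0.31, limma adjusted p = 0.695) and the same, 0.16, without mutant 1 (SE 0.076, limma adjusted p = 0.357). Set against its main clients, Serpinh1 stood at 0.24, 0.259 and 0.254 of the summed level of Col1a1, Col1a2, Col2a1 and Col3a1 in the mutants and at 0.259, 0.23 and 0.192 in the controls (log2 difference 0.15, two-sided exact permutation p = 0.4, adjusted 0.533, and 0.19 without mutant 1). The mutants spread less than the controls in this ratio, and mutant 2 and control 1 were both at the top. The collagen sum itself was 5661, 5490.2 and 5111 FPKM in the mutants and 4742, 5173 and 6423 FPKM in the controls.

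Fkbp10, the isomerase, was 161, 202 and 208 FPKM in the mutants and 183, 199 and 202 FPKM in the controls. Mutant 1 was lowest, mutant 2 was level with the highest control and mutant 3 just above it. It had a log2 change of -0.04 (95% interval -0.35 to 0.26, limma adjusted p = 0.868) and 0.07 without mutant 1 (interval -0.11 to 0.26, limma adjusted p = 0.659).

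**Figure D3:**
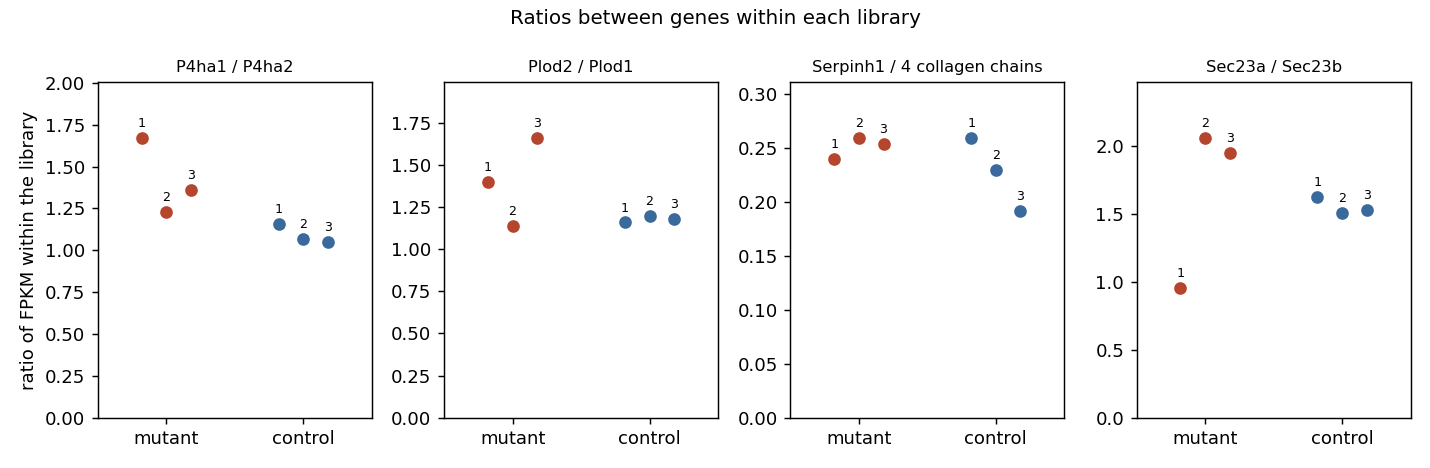
Ratio of FPKM between genes of the same library (vertical axes from 0) for P4ha1 over P4ha2, Plod2 over Plod1, Serpinh1 over the summed Col1a1, Col1a2, Col2a1 and Col3a1, and Sec23a over Sec23b, with the replicate number at each point. Only for P4ha1 over P4ha2 do all mutants (1.23 to 1.67) lie above all controls (1.05 to 1.16).

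Of the secretion genes Creb3l2 was higher in the mutants, at 35.1, 36.5 and 40.4 FPKM against 29.5, 32.6 and 30.1 FPKM in the controls. The groups did not overlap, though mutant 1 and control 2 were close. The log2 change was 0.27 (SE 0.11, 95% interval -0.00 to 0.54, limma adjusted p = 0.695), 0.33 with array weights (SE 0.079, limma adjusted p = 0.0818) and 0.31 without mutant 1 (SE 0.088, limma adjusted p = 0.166). Sec23a, its known target in mouse cartilage, was 21.6, 50.1 and 53.8 FPKM in the mutants and 51, 52.4 and 51.3 FPKM in the controls. Mutant 1 was far below the rest, and mutants 2 and 3 lay on either side of the controls. Sec23a had a log2 change of -0.40 with all 6 libraries (SE 0.35, 95% interval -1.27 to 0.47, limma adjusted p = 0.695) and 0.01 without mutant 1 (SE 0.072, interval -0.17 to 0.19, limma adjusted p = 0.959).

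Sec23b, the other SEC23 subunit, was 22.6, 24.3 and 27.6 FPKM in the mutants and 31.2, 34.8 and 33.5 FPKM in the controls, each mutant below each control (log2 change -0.41, SE 0.12, limma adjusted p = 0.695, and 0.0996 with array weights). The Sec23a to Sec23b ratio was 0.958, 2.06 and 1.95 in the mutants and 1.63, 1.51 and 1.53 in the controls, so mutants 2 and 3 were above all controls and mutant 1 below them (log2 difference 0.01, two-sided exact permutation p = 1; 0.37 without mutant 1, exact p = 0.1, the smallest that 2 against 3 allows). Creb3l1 (OASIS), the family member that drives type I collagen in mouse osteoblasts, was 41.6, 43.3 and 36.9 FPKM in the mutants and 57.5, 48.7 and 61.1 FPKM in the controls. Every mutant was below every control (log2 change -0.44, SE 0.13, limma adjusted p = 0.695, 0.0729 with array weights and 0.154 without mutant 1). Other relatives of Creb3l2 had other patterns. Creb3, the founding family member, was 142, 47.1 and 43.2 FPKM in the mutants and 70.2, 77.4 and 58.6 FPKM in the controls, with mutant 1 above every control and mutants 2 and 3 below. Creb3l4 was listed at 0 in mutant 1 and was 3.28 and 2.8 FPKM in mutants 2 and 3, against 2.75, 2.03 and 1.86 FPKM in the controls. Both were chosen after their values were seen. The difference between the changes of Creb3l2 and Creb3l1 was not tested.

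The first word of a sample's title is not explained. It is the same for mutant 1 and control 1, and for mutant 3 and controls 2 and 3, while mutant 2 has its own. Within the first pair the ratio of mutant to control ran from 0.424 for Sec23a to 1.99 for P4hb over the 10 genes. Within the other set the ratio of mutant 3 to the mean of controls 2 and 3 ran from 1.02 for P4ha2 to 1.55 for Plod2. P4ha1 was 1.21 times control 1 in mutant 1 and 1.3 times the mean of controls 2 and 3 in mutant 3, and for Plod2 these were 1.86 and 1.55.

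The rest of the pathway was read from 7 lists, without the 10 genes themselves. Of 108 tested genes 0 passed in either direction in the fit of all 6 libraries, as did 0% of all entries. With array weights 1 of the 108 passed, Pcolce2, which was higher, where 2.04% of all entries passed, 0.719% as higher. The other hydroxylation genes were the closest relatives: 7 tested, 4 above 0, median log2 change 0.06. They hold P4ha3, a further alpha subunit of prolyl 4-hydroxylase, the prolyl 3-hydroxylases, their relative Leprel4, their partner Crtap, and Tmem38b. Leprel1 (prolyl 3-hydroxylase 2) was 16.2, 20.2 and 20.6 FPKM in the mutants and 17.9, 15.7 and 13.3 FPKM in the controls. Lepre1 (prolyl 3-hydroxylase 1) was 223, 159.9 and 175 FPKM in the mutants and 159.5, 161 and 168 FPKM in the controls. For Crtap the values were 192, 229 and 225 FPKM in the mutants and 223, 185 and 213 FPKM in the controls. All 3 overlapped between genotypes, and no gene of this list was above or below the controls in all mutants. Without mutant 1, 3 of the 7 were above every control, Leprel1 and Crtap among them, against 16.2% of all entries. Then 0 of the 7 were below every control, against 20.1%.

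The folding and glycosylation list had 16 other tested genes, 7 above 0, with a median log2 change of -0.05. It held genes on either side of the controls. Canx, the lectin chaperone calnexin, was 327, 231 and 228 FPKM in the mutants and 211, 202 and 178 FPKM in the controls (log2 change 0.39, limma adjusted p = 0.695, and 0.22 without mutant 1). Colgalt2, which adds galactose to hydroxylysine, was 13.2, 8.57 and 10.4 FPKM in the mutants and 6.48, 7.38 and 8.36 FPKM in the controls (log2 change 0.46, limma adjusted p = 0.695). Ppib, the cyclophilin that works in a complex with prolyl 3-hydroxylase 1 and Crtap, was 492, 475 and 495 FPKM in the mutants and 540.3, 511 and 549 FPKM in the controls (log2 change -0.13, limma adjusted p = 0.695). Canx and Colgalt2 were above every control in every mutant, and Ppib below. Sparc, a collagen-binding matrix protein abundant in bone, was 1719.7, 1959 and 1593 FPKM in the mutants and 2368, 1917 and 2416 FPKM in the controls, with mutant 2 above control 2. Calr, the lectin chaperone calreticulin, was 965, 701 and 749 FPKM in the mutants and 743, 712 and 683 FPKM in the controls and overlapped.

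The COPII list had 22 other tested genes, 9 above 0, with a median log2 change of -0.02, and -0.06 without mutant 1. Surf4, a cargo receptor and 1 of its abundant members, was 195, 180.5 and 171 FPKM in the mutants and 162, 158 and 205 FPKM in the controls and overlapped. Sec16a, a scaffold of exit sites, was 80.4, 33.1 and 32.6 FPKM in the mutants and 31.1, 28.5 and 27.3 FPKM in the controls. It was higher in each mutant, and mutant 1 stood far above the rest (log2 change 0.60, limma adjusted p = 0.695, and 0.18 without mutant 1). The CREB3 and unfolded protein response list had 18 other tested genes, 7 above 0, with a median log2 change of -0.04, and 0.02 without mutant 1. Ddit3 (CHOP), a factor induced by stress of the endoplasmic reticulum, was 24.2, 17.5 and 18.6 FPKM in the mutants and 14.1, 16.2 and 16.2 FPKM in the controls (log2 change 0.34, limma adjusted p = 0.695, and 0.21 without mutant 1). Atf4, another stress factor, was 87.5, 123 and 116 FPKM in the mutants and 108, 104 and 114 FPKM in the controls and overlapped. Atf6 was 3.55, 7.59 and 7.32 FPKM in the mutants and 8.62, 7.72 and 7.74 FPKM in the controls. Each mutant was below each control (log2 change -0.39, limma adjusted p = 0.695, and -0.09 without mutant 1).

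**Figure D4:**
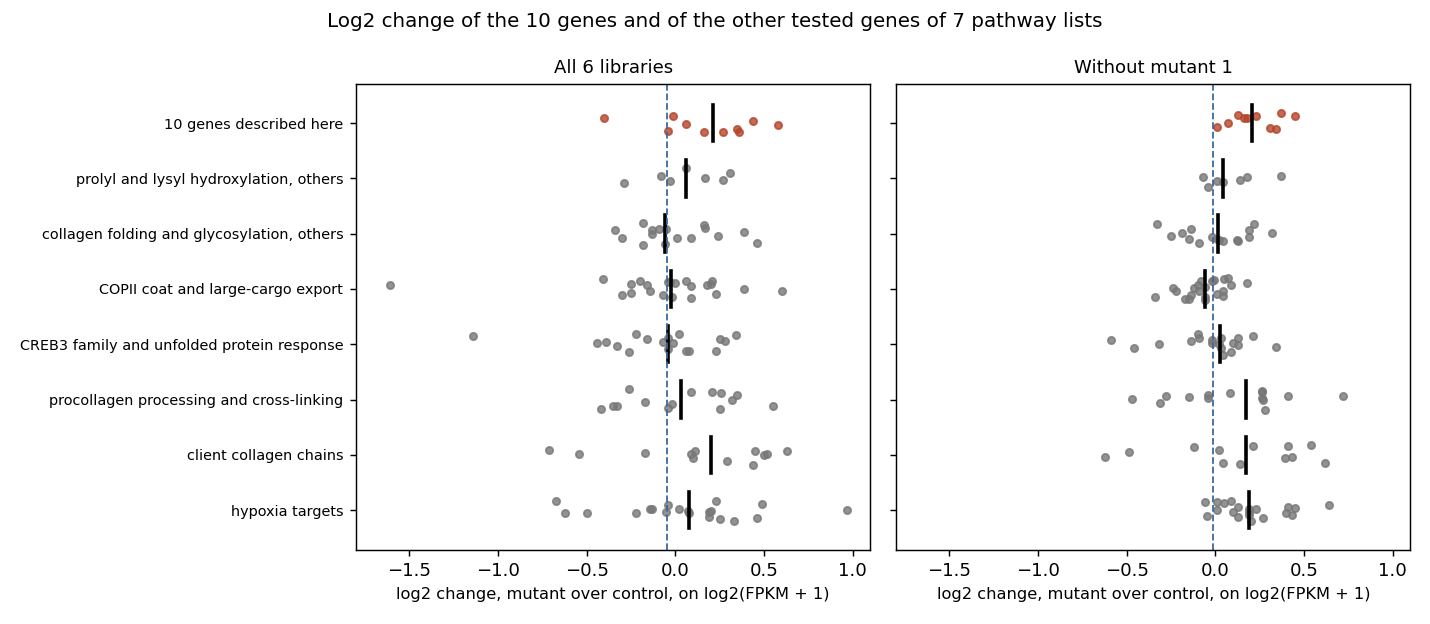
Log2 change, mutant over control on log2(FPKM + 1), of the 10 genes (top) and of the other tested genes of 7 lists, with all 6 libraries (left) and without mutant 1 (right); black bars are list medians and the dashed line is the median of all 15710 entries. The median of the 10 genes, 0.215 and 0.203, lies right of the dashed line in both panels. So does that of the collagen chains, a list rich in cartilage chains, 0.20 and 0.18. Without mutant 1 the hypoxia targets, at 0.19, and the processing genes, at 0.17, are also close to the 10 genes. The COPII list has medians of -0.02 and -0.06.

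Downstream of secretion, 14 tested genes of procollagen processing and cross-linking had 7 above 0 and a median log2 change of 0.04, and 0.17 without mutant 1. Bmp1, the procollagen C-proteinase, was 56.2, 59 and 53.3 FPKM in the mutants and 45.7, 46.1 and 48.2 FPKM in the controls. Furin, a proprotein convertase, was 71.4, 60.5 and 57.9 FPKM in the mutants and 47.5, 46.6 and 54.1 FPKM in the controls. Both were above every control in every mutant. Pcolce, which enhances Bmp1, was 171, 194 and 167 FPKM in the mutants and 228, 198 and 247 FPKM in the controls, lower in each mutant. Its relative Pcolce2, chosen after its values were seen, was 23.6, 67.1 and 73.4 FPKM in the mutants and 40.4, 44.1 and 41.8 FPKM in the controls, with mutant 1 below and mutants 2 and 3 above every control. Pcolce2 rose with array weights (log2 change 0.73, limma adjusted p = 0.0234) and did not pass with all 6 libraries (0.21, limma adjusted p = 0.811) or without mutant 1 (0.72, limma adjusted p = 0.0511). Mfap4, a microfibril protein, was 201, 242 and 222 FPKM in the mutants and 281, 279 and 286 FPKM in the controls (log2 change -0.35, limma adjusted p = 0.695, and 0.0567 with array weights).

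Of 12 tested collagen chains 9 were above 0, against 45.8% of all entries, with a median log2 change of 0.20, and 0.18 without mutant 1. The list is rich in cartilage chains. Those above 0 were Col2a1, Col9a1, Col9a2, Col9a3, Col10a1, Col11a1, Col11a2, Col3a1 and Col5a1, and those below were Col1a1, Col1a2 and Col5a2. Col2a1, the main cartilage chain, was 2659.8, 2482 and 2315 FPKM in the mutants and 1569.8, 1764 and 2207 FPKM in the controls. Col9a1, a type IX chain of cartilage, was 616, 525 and 609 FPKM in the mutants and 377, 435 and 466 FPKM in the controls. Its partner Col9a2 was 993, 789 and 867 FPKM in the mutants and 464, 566 and 697 FPKM in the controls. All 3 of these chains were above every control in every mutant. Col1a2, a chain of bone and connective tissue, was 569, 745 and 633 FPKM in the mutants and 1036, 916 and 1249.7 FPKM in the controls (log2 change -0.71, limma adjusted p = 0.695, and 0.0525 with array weights). Col1a1, its partner chain, was 687, 891 and 667 FPKM in the mutants and 1037, 899.7 and 1354 FPKM in the controls. Col3a1, a chain of soft connective tissue, was 1745, 1372 and 1495 FPKM in the mutants and 1099, 1593 and 1612 FPKM in the controls, and overlapped. None of these chains passed the test in the fits given here.

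Summed marker levels were set beside these values. In the fit of all 6 libraries 0 genes passed in any marker list given here, and with array weights 2.04% of all entries passed, 0.719% as higher and 1.32% as lower. The 10 cartilage markers summed to 4999 to 5756 FPKM in mutants and 3403 to 4462 FPKM in controls, with all 10 log2 changes above 0 and 3 that passed with array weights. The 9 osteoblast markers summed to 407 to 698 FPKM in mutants and 1044 to 1487 FPKM in controls, with 2 log2 changes above 0 and 3 genes that passed as lower with array weights. The 8 fibroblast and connective tissue markers overlapped in sum, at 2235 to 2765 FPKM in mutants and 2249.9 to 2790.3 FPKM in controls. Col3a1 alone gave 1099 to 1745 FPKM of this sum. Of the 8 log2 changes 3 were above 0, and 0 genes passed with array weights. The 8 epithelial markers summed to 377 to 419 FPKM in mutants and 688 to 699 FPKM in controls, with 2 log2 changes above 0 and 6 genes that passed as lower with array weights. The 6 fat cell markers summed to 140.2 to 215 FPKM in mutants and 400.2 to 496 FPKM in controls, with 5 that passed as lower with array weights. The 6 muscle markers with an entry summed to 2099.9 to 2795 FPKM in mutants and 3185 to 4456 FPKM in controls. In the fit without mutant 1 far fewer of all entries passed, 0.0446% in either direction and 0.0127% as higher. There the epithelial list had 2 genes and the fat list 1 that passed as lower. The cartilage and osteoblast lists had 0. Adipoq, Plin1, Cidec and Pparg of the fat list were listed at 0 in mutant 1 alone. Bglap of the osteoblast list was listed at 0 in mutants 1 and 3. The 5 endothelial markers overlapped, at 132 to 150.3 FPKM in mutants and 128 to 144 FPKM in controls. The 7 blood cell markers summed to 1760.1 to 1915 FPKM in mutants and 2088 to 2476 FPKM in controls. Every mutant was below every control in 2 of these 7 and in 3 of the 6 muscle markers, against 11.9% of all entries. With array weights 0 genes of the blood and muscle lists passed. Chondrocytes, osteoblasts and fibroblasts all make collagen, and in whole tissue more cells of a type and more RNA per cell cannot be told apart. The part of tissue make-up in the values of the 10 genes was not tested.

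P4ha1, P4ha2 and Plod2 are known targets of the hypoxia-inducible factor. P4ha1 and Plod2 were above every control in every mutant. P4ha2 overlapped between genotypes, with a log2 change of -0.01 with all 6 libraries and 0.13 without mutant 1. The part of hypoxia in the values of these genes was not tested. Of 20 other hypoxia targets 12 were above 0 with a median log2 change of 0.08, and 18 with a median of 0.19 without mutant 1. Every mutant was above every control in 7 of them and below in 0, where 8.98% of all entries were above and 11.9% below. A log2 change above 0 was found in 45.8% of all entries with all 6 libraries and in 47.0% without mutant 1. Of the 20 genes 0 passed in any of the 3 fits. Vegfa, the vessel growth factor, was 47.3, 50.4 and 39 FPKM in the mutants and 29.9, 35.5 and 33.1 FPKM in the controls. Bnip3, a mitophagy receptor, was 44.3, 54.7 and 49.3 FPKM in the mutants and 41.1, 35.2 and 40.7 FPKM in the controls. Eno1, a glycolytic enzyme, was 421, 408 and 369 FPKM in the mutants and 308, 358 and 356 FPKM in the controls. These lay above every control in every mutant, as did Ankrd37, an ankyrin repeat protein, at 38.8, 24.8 and 14.7 FPKM in the mutants and 11.2, 12.4 and 12.1 FPKM in the controls. In the fit of all 6 libraries the limma adjusted p was 0.695 for each of the 4. The log2 change of Ankrd37 was 0.97 with all 6 libraries and 0.64 without mutant 1. Aldoa, an abundant glycolytic enzyme, was 636, 739.6 and 579 FPKM in the mutants and 559, 611 and 669 FPKM in the controls and overlapped. Ldha, also abundant, overlapped too, at 409, 533 and 492 FPKM in the mutants and 449.6, 466 and 493 FPKM in the controls. Car9, Adm and Pfkfb4 of this list were listed at 0 in mutant 1 alone. Their log2 changes were -0.50, -0.62 and -0.67 with all 6 libraries and 0.19, -0.05 and 0.09 without mutant 1.

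The 10 genes did not share 1 profile. As a measure of likeness, log2(FPKM + 1) values were centred on their mean over the 6 libraries, and the root mean square difference between genes was taken. P4ha2 and Fkbp10 were the closest pair, at 0.073, followed by P4ha1 and Creb3l2 at 0.091 and Serpinh1 and P4ha1 at 0.104. Without mutant 1 the order changed: Serpinh1 was closest to Plod1 and to P4ha2, both at 0.041, and P4hb to Plod1 at 0.047, while P4ha2 and Fkbp10 were at 0.079, P4ha1 and Creb3l2 at 0.09 and Serpinh1 and P4ha1 at 0.11. Among all entries with a mean of at least 10 FPKM, the nearest to P4ha1 were Fam212a at 0.049, Scpep1 at 0.05 and Noa1 at 0.052. Nearest to Plod2 were Col27a1, a cartilage collagen chain, at 0.064, Matn1, a cartilage matrilin, at 0.072, and Edil3, a matrix protein, at 0.075. Matn1 was 468, 326 and 424 FPKM in the mutants and 234, 267 and 284 FPKM in the controls, with the same order of the mutants as Plod2. Nearest to Serpinh1 were Flna, Myd88 and Phf13 at 0.025, 0.026 and 0.03, and nearest to Creb3l2 were Lrrn1, Ldlrad3 and Dact1 at 0.025, 0.042 and 0.048. With 6 libraries and many entries such nearness is a description only. Without mutant 1 the nearest 3 to Plod2 (Rnf157, Susd5 and Npr2) and to Serpinh1 (Mecr, 4933426M11Rik and Slc39a14) were all other genes. P4ha1 then kept Fam212a, beside Zfp385b and Med23, and Creb3l2 kept Lrrn1, beside Gpr126 and Vcam1.

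Promoter sequences from RefSeq (GRCm38.p6) were at hand for 8 of the 10 genes, and for each its first listed start site was taken, with 250 bases before and 50 after it. They are shown because ACGTG forms the core letters of the hypoxia response element and is also part of elements that ATF6 and the CREB3 family bind. ACGTG, read on both strands, occurred in 6 of the 8 windows, in 27.7% of 2555 windows of genes that averaged 30 FPKM or more, and in 19.6% of all 32851 RefSeq windows. Stretches around the first match follow, 5′ to 3′ along the gene, with ACGTG or its reverse complement CACGT in capitals.
Serpinh1 (chr7:99353366-99353450, minus strand): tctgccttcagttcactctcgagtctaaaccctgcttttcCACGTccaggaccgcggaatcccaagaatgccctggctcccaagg
P4ha1 (chr10:59323240-59323310, plus strand): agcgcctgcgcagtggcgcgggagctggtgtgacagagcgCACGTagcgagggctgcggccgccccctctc
P4ha2 (chr11:54100806-54100890, plus strand): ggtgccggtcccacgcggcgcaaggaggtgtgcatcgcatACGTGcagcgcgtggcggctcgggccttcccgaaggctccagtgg
P4hb (chr11:120573265-120573349, minus strand): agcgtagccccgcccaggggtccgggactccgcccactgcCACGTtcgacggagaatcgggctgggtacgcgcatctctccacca
Plod3 (chr5:136986925-136987009, plus strand): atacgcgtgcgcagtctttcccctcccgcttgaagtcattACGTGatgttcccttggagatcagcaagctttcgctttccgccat
Sec23a (chr12:59012003-59012049, minus strand): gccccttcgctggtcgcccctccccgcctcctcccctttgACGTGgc

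The first match began 16 bases before the start site in P4ha1, 54 in Plod3, 56 in P4hb, 78 in P4ha2 and 171 in Serpinh1, and at base 9 of the transcript in Sec23a. In Sec23a it lies inside TGACGTGG, which overlaps it and which occurred in no other of the 8. TGACGTGG occurred in 0.676% of all windows and in 0.978% of those of genes that averaged 30 FPKM or more. The windows of Plod1 and Creb3l2 held no ACGTG. The ER stress response element (ERSE), on both strands, was in 0 of the 8 windows, in 0.119% of all and in 0.274% of those of genes from 30 FPKM. P4ha1, P4hb and Serpinh1, whose mutants were all above the controls, and P4ha2, Plod3 and Sec23a, whose groups overlapped, all stand among the genes with ACGTG. Plod1 and Creb3l2, which were higher in each mutant, stand among those without it. For Plod2 and Fkbp10 no promoter sequence was at hand.

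The authors' deposited table gives its own test, whose kind is not stated. For P4ha1 the authors' deposited table lists a p-value of 0.000259 with a q-value of 0.142, the smallest p of the 10 genes and rank 23 among all entries. By its limma p, P4ha1 ranked 92 in the fit of all 6 libraries and 132 with array weights. For Serpinh1 the authors' deposited table has a p-value of 0.0186, for Creb3l2 0.0203 and for Plod2 0.0315, with q-values of 0.337, 0.343 and 0.379. The authors' deposited table has 3 entries with a q-value under 0.05, and 0 of the 10 genes are among them.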

How the data were processed

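Replicates are separate embryos by their labels, numbered in accession order. The deposited values are FPKM made by the authors; the submitters' processing notes name Cufflinks and build mm9, and FPKM is a reading of that tool and the value range, as no header gives a unit. The deposited fold is a signed score of the group means, and the deposited p-value and q-value (99 in place of a missing q, which makes that column a score) come from a test that no label or header names. The 15 entries with the code 999999999 were left out. The 15710 entries that averaged 1 FPKM or more went into limma 3.58.1 (R 4.3.3) as log2(FPKM + 1), with trend and robust eBayes, two-sided, at a Benjamini-Hochberg threshold of 0.05. Such fold changes understate low genes. Ratios had exact permutation tests. Alternatives were array weights, pseudocount 0.1, other filters, 2 scalings, the title word as random effect or, added after seeing the data, as fixed block, and leaving out each library. The 10 genes, the lists and the naming rule (members; per list the 4 smallest p and 2 highest levels; 3 nearest profiles of 4 members, of which not all are printed) were chosen with earlier results of these data known. Array weights and title-word correlation came from limma with statmod 1.5.0. Promoters come from RefSeq GRCm38.p6 by symbol; no coordinates of the files' build are given. How near-identical gene copies were handled is not stated. The result of 1 marker list is not reported here. No counts were at hand, so no counting interval is given.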

Additional observations from a re-analysis of the deposited data

How the results depend on the processing

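Array weights gave 320 called entries, quantile normalization 1, leaving out mutant 1 gave 7, and leaving it out with quantile normalization gave 27, against 0 with all 6 libraries (805 at an unadjusted p under 0.05); leaving out 1 library gave 0 to 7. Of the 10 genes array weights called 1 and every other setting, including each left-out library, 0; of the pathway genes array weights called 1, leaving out mutant 1 with quantile normalization 1, and the other settings, including each left-out library, 0. Across 15 other settings 136 of 150 values of the 10 genes kept direction and side of the threshold, 1 (P4ha1 with array weights) newly passed, and 13 turned, all in P4ha2, Plod3, Fkbp10 and Sec23a. With array weights the log2 change turned to 0.11 in P4ha2, 0.079 in Fkbp10, 0.015 in Sec23a and 0.12 in Atf4. Without mutant 1 these were 0.13, 0.074, 0.01 and 0.13, with Memo1 at -0.011, and with quantile normalization as well 0.20, 0.16, 0.045 and 0.21. Leaving out 1 library at a time gave log2 changes of -0.12 to 0.13 for P4ha2 (0.02 without control 3), -0.077 to 0.34 for Plod3 (-0.076 without mutant 3), -0.11 to 0.074 for Fkbp10, -0.63 to 0.01 for Sec23a, -0.011 to 0.17 for Aldoa, -0.11 to 0.13 for Atf4 (0.022 without control 3), -0.067 to 0.21 for Col3a1, -0.019 to 0.14 for Crtap, -0.011 to 0.15 for Memo1 (-0.00025 without control 1), -0.073 to 0.72 for Pcolce2 (-0.0095 without mutant 2) and -0.0063 to 0.18 for Surf4. Creb3 spanned -0.59 to 0.26 over the left-out libraries (0.046 without control 2, 0.20 without mutant 2) and was 0.071 under the title-word block; Creb3l4 spanned -0.71 to 0.34 and was 0.29 with array weights, 0.14 with quantile normalization and 0.31 with that and without mutant 1. Median-ratio scaling turned Crtap (-0.0037) and quantile normalization Memo1 (-0.0069). The Sec23a to Sec23b log2 difference was -0.19 without mutant 2, 0.37 without mutant 1, -0.15 without mutant 3, -0.013 without control 2 and -0.00057 without control 3. The cause was not tested. Over the settings the limma adjusted p of P4ha1 ranged from 0.0343 to 0.872. No scaling moved the median of all entries beyond -0.099. The replicate numbers pair no samples. With the title word as random effect (correlation 0.108) 0 entries were called, and 0 also with it as a fixed replicate block, chosen after seeing the data, which leaves 2 residual degrees of freedom and takes mutant 2 out of the comparison. Under that block Plod3 turned to -0.0056 and Aldoa to -0.0024, P4ha1 was 0.33 and Plod2 0.74 (limma adjusted p = 0.598 for both). FPKM without counts give no depth behind single values.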
